A study of Mus musculus with 2 samples.

Results

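The glutamate transport and glutamine cycle genes described here are 9: the vesicular glutamate transporters Slc17a7, Slc17a6 and Slc17a8, the plasma membrane glutamate transporters Slc1a1, Slc1a2 and Slc1a3, the glutamine synthetase gene Glul, and the glutamine transporters Slc38a1 and Slc38a3. They were chosen by name: the symbol in the transcript identifiers was joined to the gene tables by gene identifier. All 9 were found, each with 1 gene identifier, among 55536 annotated genes, of which 22015 are protein-coding genes of the nuclear genome. Total RNA was sequenced from the left cerebral cortex; the mice were male B6CASTF1/J, hybrid offspring of a B6 and a CAST strain, aged 18 to 20 months. The 2 libraries, replicates 1 and 2, make up 1 group with no treatment and no second genotype, so the series compares no conditions. The labels give both the same donor identifier and separate biosample identifiers, and leave unsaid whether 1 animal or several were used. The spread between the libraries may therefore not measure that between animals. The libraries also differed in striatal markers, of which all 7 were higher in replicate 2, as given below.

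Glutamate is the main excitatory transmitter of the cortex. Vesicular transporters load it into synaptic vesicles of neurons, and after release it is taken up from the extracellular space, mostly by astrocytes, through sodium-driven membrane transporters. Astrocytes convert it to glutamine with glutamine synthetase and pass glutamine back to neurons, which turn it into glutamate again, and this exchange is called the glutamate-glutamine cycle.

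The libraries held 22827996 and 29897545 expected counts over annotated genes in replicates 1 and 2. Levels are given as TPM, a share of the library's transcripts that divides reads by transcript length, so that genes can be ordered. The interval beside a TPM is the deposited credibility interval, whose credibility level the sources used here do not give and which surrounds a posterior mean. For Glul, Slc1a2 and Slc17a7 the TPM itself lay above its own interval in both libraries. All 6 excitatory neuron markers, all 8 astrocyte markers and all 4 inhibitory neuron markers reached 1 TPM in each library, against 58.5% of nuclear protein-coding genes. So did all 7 striatal markers and 4 of 5 thalamic markers. Reaching 1 TPM therefore does not tell cortex from neighbouring regions. In whole tissue, fewer cells of a type and less RNA per cell cannot be told apart.

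All 9 genes reached 1 TPM, the level counted as detected, in replicates 1 and 2, against 58.5% of nuclear protein-coding genes. Together they held 0.513% of nuclear protein-coding TPM in replicate 1 and 0.509% in replicate 2. Glul was the highest and Slc17a8 the lowest.

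**Figure D1:**
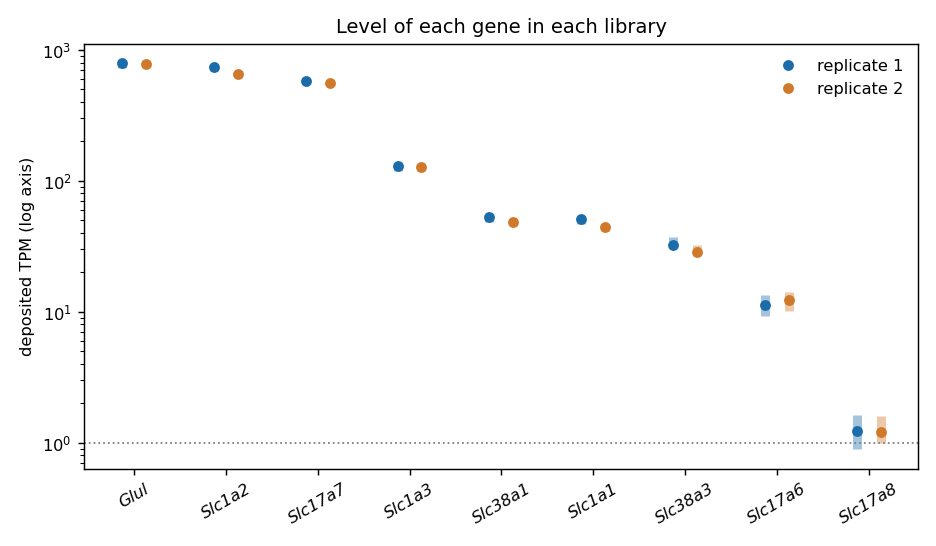
Deposited TPM (log axis) of each of the 9 genes in replicate 1 (blue) and replicate 2 (orange), ordered by mean, with shaded bars for the deposited intervals and a dotted line at a TPM of 1. Glul, Slc1a2 and Slc17a7 sit at 562 to 789.5 TPM, and Slc17a8 sits just above the dotted line with intervals that reach below it.

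Among the vesicular transporters, Slc17a7 held nearly all of the RNA. Slc17a7, the VGLUT1 gene of cortical excitatory neurons (ENSMUSG00000070570.5, GRCm38 chromosome 7, 45163949 to 45176142, plus strand), stood at 581 TPM in replicate 1 (interval 549 to 563) and 562 in replicate 2 (539 to 551), a mean of 572 ± 13.3 (SD, n = 2). It ranked 43 by mean TPM among the nuclear protein-coding genes. Slc17a6, the VGLUT2 gene, which predominates in thalamus and brainstem (ENSMUSG00000030500.6, chromosome 7, 51622006 to 51671119, plus strand), stood at 11.2 TPM (9.18 to 13.3) and 12.2 TPM (10.2 to 14.1). It ranked 7669, and its intervals lay far below those of Slc17a7 in both libraries.

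Slc17a8, the VGLUT3 gene, known from cholinergic and serotonergic neurons and a subset of cortical interneurons (ENSMUSG00000019935.16, chromosome 10, 89574020 to 89621253, minus strand), was the lowest of the 9. It stood at 1.22 TPM (0.885 to 1.63) and 1.20 TPM (0.984 to 1.60), on 69 and 105 counts, so both intervals extended below the detection threshold of 1 TPM. Of the summed TPM of the vesicular transporters, Slc17a7 held 97.8 ± 0.17%, Slc17a6 2.00 ± 0.16% and Slc17a8 0.21 ± 0.0021%. Slc17a7 exceeded Slc17a8 by 476-fold and 469-fold in replicates 1 and 2, and Slc17a6 exceeded Slc17a8 by 9.19-fold and 10.2-fold. A second quantification was deposited for each library, in the column layout of kallisto where the main tables have that of RSEM. Nuclear protein-coding genes held 75.6% and 75.0% of TPM there, against 46.6% and 44.4% in the RSEM layout, and all 9 genes had a higher TPM in it, from 2.15 for Slc17a8 to 1046 for Glul. In these tables Slc17a7 exceeded Slc17a6 by 42.2-fold and 40.5-fold, and Slc17a8 by 393-fold and 389-fold.

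Since reads were divided among transcripts, the likeness of the coding sequences bears on how far paralogs could be told apart. The leading coding sequences of Slc17a7 (1680 bases) and Slc17a6 (1746 bases) were identical at 71.9% of 1663 aligned bases. The longest stretch of letters that both coding sequences share, shown because reads confined to it could not be assigned, has 21 bases and lies at chr7:45168896-45168916 in exon 2 of Slc17a7-201 and at chr7:51625462-51625482 in exon 2 of Slc17a6-201, plus strand in both (GRCm38, GENCODE M21 transcripts).
Slc17a7 and Slc17a6: aacctgggcgtggccatcgtg
The longest run shared by Slc17a6 and Slc17a8 had 25 bases, and that shared by Slc17a7 and Slc17a8 had 17. Between the membrane transporters the longest shared runs had 15 to 20 bases, at identities of 61.6% to 65.0%.

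Among the membrane transporters, Slc1a2 held most of the RNA. Slc1a2, the gene of the astrocyte transporter GLT-1 (ENSMUSG00000005089.15, chromosome 2, 102658659 to 102790784, plus strand), stood at 740.3 TPM in replicate 1 (interval 691 to 733) and 655 in replicate 2 (620.4 to 652). It had 94084 and 115332 expected counts, 0.412% and 0.386% of all counts of annotated genes. By counts it ranked 1 among the nuclear protein-coding genes and by TPM it ranked 28, because its leading transcript is 11595 bases long.

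Slc1a3, the gene of the other astrocyte transporter, GLAST (ENSMUSG00000005360.14, chromosome 15, 8634124 to 8710764, minus strand), stood at 129 TPM (120 to 132) and 128 TPM (120 to 132), a mean of 129 ± 0.63 (SD, n = 2). Slc1a1, the gene of the neuronal transporter EAAC1 (ENSMUSG00000024935.11, chromosome 19, 28835049 to 28913960, plus strand), stood at 50.8 TPM (46.7 to 51.4) and 44.0 TPM (41.1 to 44.6). The intervals of these transporters did not overlap in either library. Of their summed TPM, Slc1a2 held 79.8 ± 0.89%, Slc1a3 14.8 ± 1.04% and Slc1a1 5.42 ± 0.14%. The excess of Slc1a2 over Slc1a3 was 5.73-fold and 5.10-fold in replicates 1 and 2, 4.08-fold and 3.58-fold in the kallisto-layout tables, and 12.3-fold as a mean in counts that are not divided by length. The excess of Slc1a3 over Slc1a1 was 2.54-fold and 2.92-fold, and 3.01-fold and 3.54-fold in the kallisto-layout tables.

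Slc1a2 was annotated with 12 transcripts, of which 4 have a complete coding sequence, formed by 2 starts and 2 ends. These sequences are shown because the data divide the gene's RNA among them. Capitals mark the stretch that each alternative has of its own, and lower case marks bases they share. Letters can still match within the capitals, as in the ATGG that begins both starts.
Start of Slc1a2-202 and Slc1a2-204, chr2:102659285-102659300 in exon 1: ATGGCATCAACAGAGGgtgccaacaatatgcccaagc
Start of Slc1a2-201 and Slc1a2-203, chr2:102706476-102706482 in exon 1: ATGGTCAgtgccaacaatatgcccaagc
End of Slc1a2-202 and Slc1a2-203, chr2:102781466-102781531 in exon 11: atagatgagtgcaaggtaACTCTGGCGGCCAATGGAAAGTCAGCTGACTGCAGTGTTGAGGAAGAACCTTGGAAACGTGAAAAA
End of Slc1a2-201 and Slc1a2-204, chr2:102777659-102777691 in exon 10: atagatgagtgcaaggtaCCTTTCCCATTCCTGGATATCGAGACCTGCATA
The coordinates are those of the bases in capitals on GRCm38, plus strand, and the sequences are from GENCODE M21 transcripts, without stop codons. The longer of these ends, with 66 distinct bases, belongs to the form known as GLT-1a, and the shorter, with 33, to GLT-1b, whose end is known to bind PDZ-domain proteins. Slc1a2-202 and Slc1a2-203 were annotated to begin 47779 bases apart.

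The GLT-1a end held most of the RNA of these 4 transcripts. Transcripts with it summed to 569 and 521 TPM in replicates 1 and 2, and those with the GLT-1b end to 58.0 and 48.4 TPM. Of the 4 transcripts' TPM, the GLT-1b end thus held 9.25% and 8.49%, and 7.99% and 7.19% in the kallisto-layout tables, where Slc1a2-204 was close to 0. The downstream start, that of Slc1a2-201 and Slc1a2-203, held 12.7% in replicate 1 and 15.6% in replicate 2, and 13.1% and 15.4% in the kallisto-layout tables. The 4 transcripts made up 84.6% and 86.9% of the gene's TPM. These shares rest on the annotated lengths: 9253 bases of Slc1a2-202 lie after its last coding codon, and it took 96.4% and 95.8% of the gene's counts. The rest of the TPM lay on 8 transcripts of partial or no coding sequence, among them Slc1a2-205, 510 bases long, with 64.1 and 55.7 TPM.

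The 250 bases before the downstream start are shown because it is the start with the smaller share of the RNA and the one listed for Slc1a2 in the RefSeq promoter table (GRCm38.p6), at chr2:102706188-102706437 on the plus strand.
Slc1a2, before the downstream start: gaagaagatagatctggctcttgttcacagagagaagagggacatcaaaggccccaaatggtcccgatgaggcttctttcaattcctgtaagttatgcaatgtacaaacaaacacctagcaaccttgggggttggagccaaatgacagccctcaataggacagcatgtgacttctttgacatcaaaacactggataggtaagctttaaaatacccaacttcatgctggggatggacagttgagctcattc
This stretch held 1 CG dinucleotide, against a median of 6 over 32851 promoter entries. Neither strand held GGGCGG (the GC box letters, in 32.7% of entries), CCAAT (33.8%) or TATAAA (12.4%). Of the 9 genes, 7 had an entry in that table, and their CG dinucleotides numbered 27 for Slc1a1, 15 for Glul and 9 for Slc17a7, 7 and 3 in the 2 entries of Slc17a6, 5 and 3 in those of Slc17a8, and 2 for Slc1a3.

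Glul, the gene of glutamine synthetase, which makes glutamine from glutamate and ammonia in astrocytes (ENSMUSG00000026473.15, chromosome 1, 153899944 to 153909723, plus strand), had the highest mean of the 9. It stood at 789.5 TPM in replicate 1 (interval 730 to 781) and 779 in replicate 2 (734 to 776), a mean of 784 ± 7.23 (SD, n = 2), rank 21 among nuclear protein-coding genes. Part of this level rests on a short transcript. Glul-203, 379 bases long with an open 3′ end in the annotation, held 2.33% and 2.67% of the gene's counts but 18.4% and 20.7% of its TPM, and it was listed at 0 in the kallisto-layout tables. Those tables gave 10.6% and 12.9% of Glul TPM to another short transcript, Glul-202, of 681 bases, which was at 0 in the RSEM layout. They placed Glul and Slc1a2 close together, with Glul higher by 1.01-fold in replicate 1 and 1.15-fold in replicate 2.

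The glutamine transporters stood lower. Slc38a1, which carries glutamine into neurons with sodium (ENSMUSG00000023169.15, chromosome 15, 96571418 to 96642913, minus strand), stood at 52.5 TPM (48.4 to 52.9) and 48.1 TPM (45.3 to 48.6). Slc38a3, which releases glutamine from astrocytes (ENSMUSG00000010064.15, chromosome 9, 107650634 to 107669530, minus strand), stood at 32.0 TPM (30.7 to 37.2) and 28.6 TPM (26.7 to 32.2). Slc38a1 was thus higher, by 1.64-fold in replicate 1 and 1.68-fold in replicate 2, with intervals that did not overlap. The mean excess was 1.28-fold in the kallisto-layout tables and 4.86-fold in counts, as the mean transcript length of Slc38a1 was 6486 bases in replicate 1 and that of Slc38a3 2323. Their coding sequences shared a run of 26 bases, the longest of the 7 pairs of related genes compared, at chr15:96609904-96609929 and chr9:107658685-107658710, exon 4 of each, on the minus strand (GRCm38).
Slc38a1 and Slc38a3: agcaacgccatcatgggcagtggaat

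In order of mean TPM the 9 genes ran Glul, Slc1a2, Slc17a7, Slc1a3, Slc38a1, Slc1a1, Slc38a3, Slc17a6 and Slc17a8. Of the 8 pairs of neighbours in this order, 6 were separated by their intervals in replicate 1 and again, the same way, in replicate 2. The exceptions were Glul and Slc1a2, with overlapping intervals in replicate 1 and separate ones in replicate 2, and Slc38a1 and Slc1a1, which likewise overlapped in replicate 1 only. All 7 pairs of related genes were separated in both libraries, and all 7 kept their direction in the kallisto-layout tables and in counts.

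The genes differed in how far 1 transcript led. In the RSEM-layout tables all 9 had the same leading transcript in both libraries, and in 8 it also led in both kallisto-layout tables. Slc17a7-201 held the largest share of a gene among the 9, 95.8 ± 1.12% of Slc17a7 (SD, n = 2), with 95.6 ± 0.34% in the kallisto-layout tables. Slc1a3-201 held 88.8 ± 0.26% of Slc1a3, but 69.9 ± 1.57% in the kallisto-layout tables, where Slc1a3-204, a retained-intron transcript of 469 bases, took 23.5 ± 1.89%. Slc17a8-201 held 79.3% of Slc17a8 in replicate 1 and 94.6% in replicate 2, on 69 and 105 counts. In the kallisto-layout tables its share went the other way, from 79.7% to 72.1%.

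Slc38a3 was the gene whose leading transcript differed between the quantifications. Slc38a3-209 held 45.6% and 61.5% in replicates 1 and 2 of the RSEM-layout tables and less than 0.01% in the kallisto-layout tables, where Slc38a3-201 held 53.7 ± 3.27%. Both transcripts carry the same coding sequence of 1515 bases, so the difference concerns their noncoding parts. Single transcripts of Slc38a3 were therefore uncertain, whereas the gene's total was higher than that of Slc17a6 and lower than that of Slc38a1 in both quantifications.

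**Figure D2:**
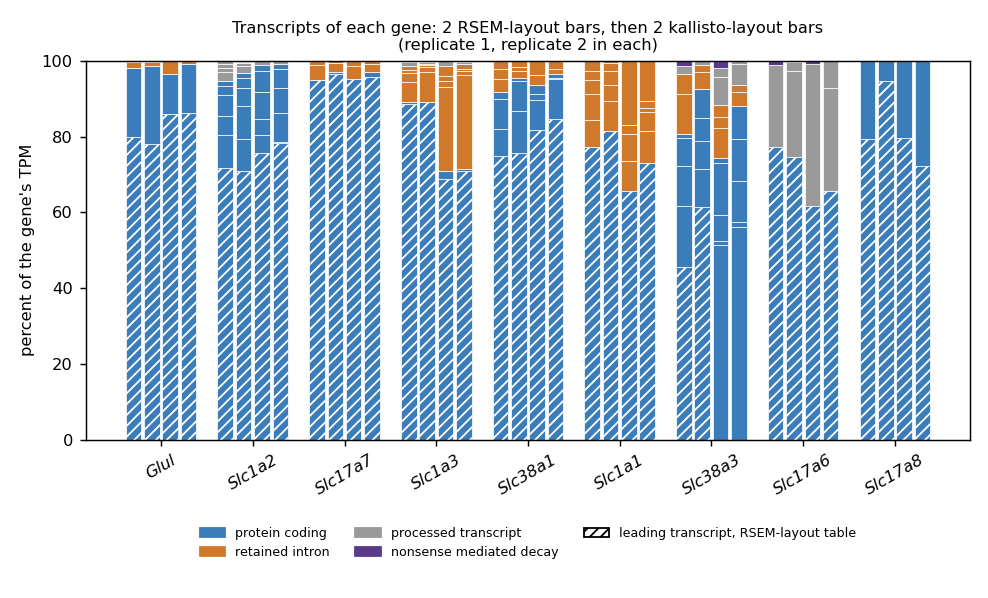
Percent of each gene's TPM (vertical axis) held by each annotated transcript, coloured by transcript class, with 4 bars a gene: replicates 1 and 2 in the RSEM-layout tables, then replicates 1 and 2 in the kallisto-layout tables. Hatching marks the transcript with the highest mean share in the RSEM-layout tables, which led in all bars except those of Slc38a3 in the kallisto-layout tables.

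Between the replicates the 9 genes had log2 ratios from -0.070 for Slc38a3 to 0.26 for Slc17a8. The comparison used rounded expected counts scaled with TMM, an edgeR factor that balances the bulk of genes, and a 95% exact (Clopper-Pearson) interval that covers counting error only. No gene of the 9 had a log2 ratio of 0.32 or more in either direction. Among nuclear protein-coding genes 8.77% were that far above and 7.88% that far below, and among all 17965 genes tested 9.39% and 17.1%. At such shares few of 9 genes would lie that far out, so finding none does not set them apart. The shares also include genes with mean counts down to 10, where counting error is larger than in most of the 9. The largest differences were in the genes with the fewest counts: Slc17a8 had a log2 ratio of replicate 2 over replicate 1 of 0.26 (interval -0.19 to 0.72), and Slc17a6, with 544 and 799 counts, had 0.21 (0.052 to 0.37).

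The intervals of 4 genes lay above 0, against 24.2% of nuclear protein-coding genes and 20.9% of all genes tested. That of 1 gene lay below, against 12.7% and 16.8%. An interval narrows as counts rise, and these shares include genes with mean counts down to 10. They were not matched to the counts of the 9 genes, so they do not set the 9 apart. Above 0 lay Slc17a6, Slc1a3 at 0.11 (0.066 to 0.15), Slc17a7 at 0.089 (0.065 to 0.11) and Glul at 0.087 (0.064 to 0.11). Slc1a2 was the gene below 0, at -0.050 (-0.062 to -0.037), and its 94084 and 115332 counts make so small a ratio exceed counting error. The median log2 ratio was 0.053 over nuclear protein-coding genes and 0.087 over the 9. With spike-in totals as the scale every log2 ratio moved by -0.13, so that those of Slc17a7, Slc1a3, Glul and Slc38a1 turned negative, and in the kallisto-layout counts that of Slc1a2 turned positive at 0.0045. Slc1a1, at -0.038 (-0.11 to 0.039), likewise stood at 0.012 in the kallisto-layout counts and at 0.0023 with coding transcripts only, and Slc38a3 at 0.092 with coding transcripts only. The direction of these 7 genes therefore depends on the scale, the quantification or the transcripts counted. Deposited TPM, which is not TMM-scaled, was lower in replicate 2 for every gene of the 9 except Slc17a6. Slc17a8 thus went from 1.22 to 1.20 TPM, although its log2 ratio of counts was 0.26. Over the nuclear protein-coding genes tested, the median log2 ratio of TPM differed from that of scaled counts by -0.14.

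Markers of other cell types and regions moved between the libraries as well. All 7 striatal markers were higher in replicate 2, with a median log2 ratio of 1.12 and a summed TPM of 165 in replicate 1 and 354 in replicate 2. The 3 markers of cholinergic neurons, which express Slc17a8 in the striatum, were under 1 TPM each and summed to 0.81 and 2.28 TPM. Their median log2 ratio of TMM-scaled counts was 1.87. Slc17a8 stood at 1.22 and 1.20 TPM, and at 0.26 (-0.19 to 0.72) in TMM-scaled counts. The 3 serotonergic markers summed to 0.21 and 0.24 TPM, with Slc6a4 and Fev at 0 in replicate 1. Of the 5 thalamic markers 4 were detected, summing over the list to 52.1 and 40.5 TPM, beside 11.2 and 12.2 TPM of Slc17a6. Rora alone made up 37.5 and 28.4 TPM of that sum, and each other marker of the list was at 6.75 TPM or less. The 8 astrocyte markers, beside which Slc1a2, Slc1a3 and Glul stand, had a median log2 ratio of 0.039. Of their intervals 2 lay above 0 and 0 below, and their TPM, which is not TMM-scaled, summed to 658 and 643. The 6 excitatory neuron markers, beside which Slc17a7 stands at 0.089, had a median of 0.0050, with 1 interval above 0 and 3 below. Intervals lay above 0 for 4 of 5 oligodendrocyte markers (median 0.20), 3 of 4 microglia markers (0.19) and 3 of 4 inhibitory neuron markers (0.17). Of 4 endothelial markers, 2 lay above 0 and 1 below (0.14), and of 3 hippocampal markers tested, 1 lay above (0.042). Among nuclear protein-coding genes 24.2% lay above 0 and 12.7% below. The part of these cells in the values of the 9 genes was not tested.

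**Figure D3:**
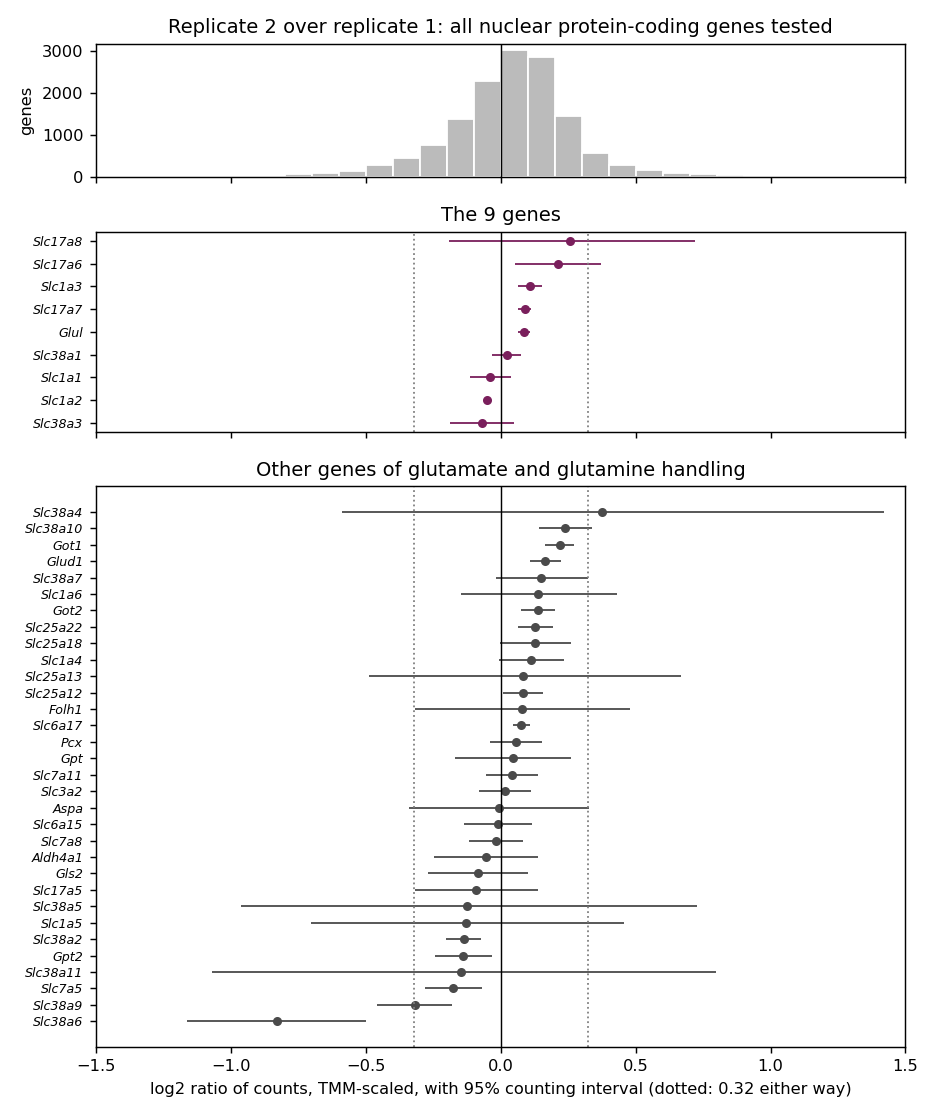
Log2 ratio of replicate 2 over replicate 1 (horizontal axis, TMM-scaled counts) for all nuclear protein-coding genes tested (top, number of genes per bin, with ratios beyond the axis not drawn), the 9 genes (middle) and other tested genes of glutamate and glutamine handling (bottom), with 95% counting intervals and dotted lines at 0.32 in either direction. All 9 genes lie between the dotted lines, from -0.070 for Slc38a3 to 0.26 for Slc17a8.

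Classes of transcripts differed more between the replicates than the gene totals did. Of the 9 genes, 6 have transcripts annotated as retaining an intron, and in all 6 the summed counts of those transcripts were lower in replicate 2 relative to the coding transcripts of the same gene. Single transcripts did not all follow the sum: Slc1a3-204 went from 38.1 to 79.3 counts, a log2 ratio of 0.70 (0.14 to 1.31), and Slc1a1-203 had 0.11 (-0.29 to 0.53). The retained-intron transcripts of Slc17a7 had 1029 and 850 counts, a log2 ratio of -0.62 (interval -0.75 to -0.49), where its coding transcripts had 0.11 (0.089 to 0.14). Those of Slc38a3 fell from 16.3% of the retained-intron and coding counts to 6.89%, the widest log2 gap of the 6 in the RSEM-layout tables, with log2 ratios of -1.30 (-1.69 to -0.92) for retained-intron and 0.092 (-0.035 to 0.22) for coding transcripts.

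This difference was shared with most genes. Over 5165 genes with enough counts of both classes, 87.1% had a lower ratio for retained-intron than for coding transcripts, with a median difference of -0.62, against -0.71 over the 6 genes. The intervals of the retained-intron transcripts lay below 0 in all 6, against 56.9% of those genes. In the kallisto-layout tables all 6 were lower too, against 86.4% of 5115 genes, and all 6 had intervals below 0, against 54.8%. There the widest gap was in Glul, at -2.10 on 91 and 28 retained-intron counts, against -1.30 in Slc38a3. For Slc38a3 the class mattered to the sign: the whole gene stood at -0.070 (-0.19 to 0.049) and its coding transcripts at 0.092, with intervals that include 0 in both cases. This comparison was added after the transcript values were seen.

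**Figure D4:**
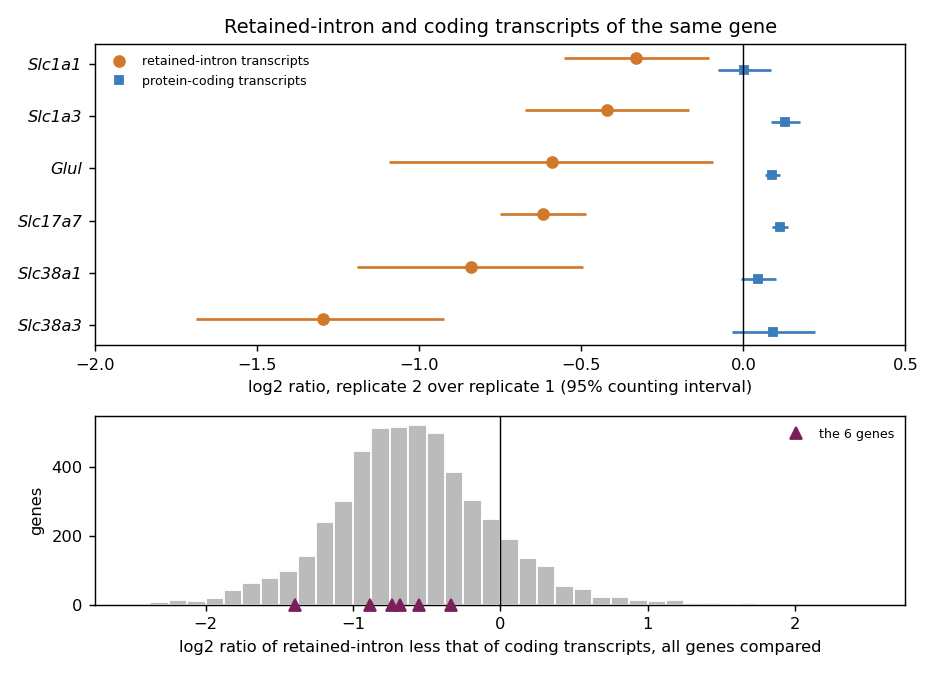
Top, log2 ratio of replicate 2 over replicate 1 with 95% counting intervals for the retained-intron (orange circles) and coding (blue squares) transcripts of 6 genes in the RSEM-layout tables. Bottom, the difference between these ratios for all 5165 genes compared (grey, number of genes per bin, with values beyond the axis not drawn), with the 6 genes as triangles from -1.39 to -0.33, all below 0.

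Transcripts of Slc1a2 also moved apart from each other. Slc1a2-203, with the downstream start and the GLT-1a end, went from 1039 to 2198 counts, for a log2 ratio of 0.74 (0.63 to 0.85), while Slc1a2-202 was at -0.060 (-0.072 to -0.047). Its share of the gene's TPM was 5.08% and 8.72%, and 4.42% and 7.65% in the kallisto-layout tables. Slc1a2-201, which has the same downstream start and the GLT-1b end, went the other way, from 1256 to 1341 counts, a log2 ratio of -0.25 (-0.36 to -0.14). In Slc38a1, Slc38a1-203, of 3183 bases, went from 175 to 338 counts, a log2 ratio of 0.60 (0.34 to 0.88), while the longer Slc38a1-201 was at 0.027 (-0.032 to 0.085). Slc1a2-203, Slc1a2-201 and Slc38a1-203 were chosen after their values were seen.

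Of 40 other genes that make, break down or carry glutamate and glutamine, 30 were detected, against the same 58.5% of nuclear protein-coding genes. Among the highest were Got1, the cytosolic aspartate aminotransferase, at 174 ± 7.50 TPM (SD, n = 2), Slc6a17, a vesicular carrier of neutral amino acids, at 168 ± 2.35, Glud1, glutamate dehydrogenase, at 128 ± 3.44, and Slc25a22, a mitochondrial glutamate carrier, at 111 ± 4.11. Each of these lay below Glul, Slc1a2 and Slc17a7, and Got1 and Slc6a17 lay above Slc1a3.

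The other Slc1 and Slc17 genes of the list were low, at 16.8 TPM or less, whereas some other Slc38 genes reached the levels of Slc38a1 and Slc38a3. Slc38a2, a sodium-coupled carrier of neutral amino acids, stood at 47.7 ± 6.14 TPM and Slc38a10 at 35.4 ± 0.21, beside 50.3 for Slc38a1 and 30.3 for Slc38a3. Slc1a4, a carrier of neutral amino acids, stood at 16.8 ± 0.16 TPM, Slc1a6, a glutamate transporter known from cerebellar Purkinje cells, at 6.05 ± 0.021, Slc1a5, also a neutral amino acid carrier, at 1.60 ± 0.50, and Slc1a7, known from retina, at 0.17 ± 0.078. Slc17a5, the lysosomal sialic acid transporter, stood at 8.29 ± 0.87 TPM, and Slc17a9, a vesicular nucleotide transporter, at 0.14 ± 0.028. Slc17a1 and Slc17a4 had 0 counts in both libraries, and Slc17a2 and Slc17a3 had 1 count in 1 library each.

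Of the 33 list genes tested, 7 had intervals above 0 in replicate 2 and 6 below, against 24.2% and 12.7% of nuclear protein-coding genes, and their median log2 ratio was 0.042. Got1 was at 0.22 (0.17 to 0.27) and Glud1 at 0.17 (0.11 to 0.22). A log2 ratio of 0.32 or more in size was found for Slc38a6, at -0.83 (-1.16 to -0.50) on 185 and 132 counts, and Slc38a4, which had 15 and 25 counts and an interval that includes 0. The level of Slc38a6 is uncertain, as it was 9.61 and 3.77 TPM in the RSEM-layout tables but 118 and 64.8 in the kallisto-layout tables. This list was written with earlier results of these data known and covers enzymes and carriers by name.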

How the data were processed

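Total RNA of 2 libraries was quantified by the submitters on mm10 with GENCODE M21 annotation, as the deposited list of files records. The sources used here do not give the aligner, the tool versions or the use of strand. Expected counts and TPM, with posterior means and interval bounds, are deposited per gene and transcript in RSEM layout, and estimated counts and TPM per transcript in kallisto layout, per the file headers. The former come from a transcriptome alignment and the latter from 1 file of reads. The upper interval bound is a deposited signal with no fixed sum. Each transcript's percent of its gene's TPM was deposited too. TPM is scaled over all features, including abundant small RNAs.

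Kallisto-layout values were summed per gene. Expected counts were rounded. Spike-ins (0.435% and 0.46% of counts) and tRNA entries stayed out of library sizes. TMM factors came from edgeR 4.0.16 in R 4.3.3, and log2 ratios used a pseudocount of 0.5. With 1 library on each side no p-value was calculated. Intervals are 95% Clopper-Pearson intervals of the counts. They cover counting error only. They leave out repeated reads of 1 molecule, which cannot be seen without molecular identifiers, and the uncertainty of dividing reads among transcripts. They can therefore be too narrow, above all for single transcripts. Genes averaging at least 10 counts were tested, and retained-intron classes needed a mean count of 20. A pair was called where the deposited intervals were separate, with the same gene higher, in each library. For kallisto-layout values and for counts, where these intervals do not apply, another rule was used. There the log2 ratio needed the same sign in both libraries and a mean above 3 SD in size. Ratios and intervals were tested on simulated data. Coding sequences were aligned with Biopython 1.88. CAST variants may have lowered counts on the reference genome, which was not measured.

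The 9 genes, the pathway list and the marker lists were chosen with earlier results of these data known. All 9 genes are named. Of the pathway list the 5 highest, those at a log2 ratio of 0.32 or more in size with a mean count of 100 or more, and all Slc1 and Slc17 genes are named, except 1 item that is not reported here; Slc38a2, Slc38a4 and Slc38a10 were added after their values were seen. No likeness of pattern to other genes was calculated, since 2 libraries hold 1 ratio per gene. Alternatives were the other quantification, DESeq2 1.42.0 size factors, spike-in totals, TMM on protein-coding or filtered genes, other thresholds and pseudocounts, and each replicate left out.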

Additional observations from a re-analysis of the deposited data

How the results depend on the processing

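The number of the 9 genes detected, of pairs of related genes called and of genes with a constant leading transcript stayed within 1.5 times the reported number under every alternative run for them. What depended on the scale was the split of genes by direction between the replicates. With spike-in totals 0 of the 9 genes lay above 0 and 6 below, and the log2 ratio turned to -0.037 for Slc17a7, -0.016 for Slc1a3, -0.038 for Glul and -0.10 for Slc38a1. With TMM on protein-coding genes 2 genes lay below, and in the kallisto-layout counts 0 did, where Slc1a2 turned to 0.0045. A threshold of 0.32 on the log2 ratio, in place of the interval, called 0 of the 9 genes, 0 upward and 0 downward, and 2 of the pathway list, 1 in each direction. Spike-in totals called 2 pathway genes above 0 and 11 below. The cause of these shifts was not tested, beyond the change of scale itself. With coding transcripts only, an alternative chosen after seeing the data, 4 of the 9 genes lay above 0 and 1 below, as reported. Of the neighbouring levels, 5 pairs were called in the kallisto-layout tables by the 3 SD rule, and there Slc38a1 over Slc1a1 turned to a mean of 0.96-fold. In counts 8 were called by that rule, but 1 of them the other way, with Glul over Slc1a2 at 0.289-fold. These numbers rest on a different rule from the 6 reported. Leaving out a replicate gave 6 to 8 neighbouring pairs, and with 2 libraries it only returns the other library's value. No paired analysis was possible because the series holds a single group. Depth limits Slc17a8, with 69 and 105 counts, and the level of the deposited intervals is unknown.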
